A study of Mus musculus with 3 samples.

Results

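The respiratory chain genes of the mouse liver libraries were followed across cell types and across time after tumour cell injection. They are the 106 of 31053 rows of the deposited gene tables whose symbols name structural genes, and some assembly factors, of complexes I to V: Nduf genes of the a, b, c, s and v series, the 4 Sdh subunits, Uqcr genes, Cox4 to Cox8 genes, Atp5 genes and the protein-coding genes of mitochondrial DNA, with pseudogenes left out. Of these, 93 rows lie in the nucleus and 13 in mitochondrial DNA. Non-parenchymal cells, the fraction of liver left when most hepatocytes are removed, came from livers that were perfused and dissociated, all of female mice of strain Balb\c, and were profiled by 10x droplet sequencing of transcript 3' ends. The 3 groups were mice injected with PBS (control, labelled 8 weeks of age), mice collected 4 days after injection of 4T1 cells into the mammary site (day 4, 8 weeks) and mice collected 21 days after it (day 21, 11 weeks). 4T1 is a mouse breast carcinoma line, and no mouse carried a gene change. There was 1 library per group, how many mice went into each is not stated, and nor is when the control mice were collected, so every interval below is a 95% interval for counting error alone and no test between groups was possible. Age and time since injection cannot be told apart at day 21.

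The respiratory chain sits in the inner mitochondrial membrane. Complexes I and II pass electrons from NADH and succinate to ubiquinone, complex III passes them to cytochrome c, complex IV passes them to oxygen, and complex V, the ATP synthase, uses the proton gradient to make ATP. Complex II is built from nuclear genes alone, while the other complexes combine nuclear subunits with subunits made inside the organelle. Hepatocytes are rich in mitochondria, whereas mature neutrophils hold few and rely largely on glycolysis.

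Promoters of 4 genes that recur in the results are shown first, from 250 bases before to 50 bases after the annotated start. Atp5g1, Atp5g2 and Atp5g3 encode the same c ring protein of ATP synthase with different import signals, and their shares differed between libraries. Atp5k encodes the small subunit e of the same enzyme and was higher at day 21 in 8 of the 8 lineages in which it could be compared. In these lineages the median log2 ratio of all tested genes was also above 0, from 0.10 to 0.375. How many of all genes were higher in every lineage was not counted. Letters in capitals mark the palindromic consensus of NRF1, a transcription factor known for nuclear mitochondrial genes. Sequences are from RefSeq, build GRCm38.p6, on the minus strand in each case: chr11:96075582-96075881 for Atp5g1, chr15:102670998-102671297 for Atp5g2, chr2:73911277-73911576 for Atp5g3 and chr5:108434350-108434649 for Atp5k.
Atp5g1: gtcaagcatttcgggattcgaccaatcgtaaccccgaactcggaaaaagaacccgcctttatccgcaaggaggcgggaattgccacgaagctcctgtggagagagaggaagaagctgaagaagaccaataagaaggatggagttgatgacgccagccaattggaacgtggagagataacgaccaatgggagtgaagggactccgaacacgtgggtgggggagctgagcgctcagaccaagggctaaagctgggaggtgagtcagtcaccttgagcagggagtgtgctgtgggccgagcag
Atp5g2: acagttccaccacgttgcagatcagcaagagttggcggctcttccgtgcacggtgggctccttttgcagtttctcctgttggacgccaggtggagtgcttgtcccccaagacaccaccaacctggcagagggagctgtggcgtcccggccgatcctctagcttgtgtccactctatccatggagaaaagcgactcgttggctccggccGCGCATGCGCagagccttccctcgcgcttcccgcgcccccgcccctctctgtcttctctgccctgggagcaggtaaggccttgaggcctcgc
Atp5g3: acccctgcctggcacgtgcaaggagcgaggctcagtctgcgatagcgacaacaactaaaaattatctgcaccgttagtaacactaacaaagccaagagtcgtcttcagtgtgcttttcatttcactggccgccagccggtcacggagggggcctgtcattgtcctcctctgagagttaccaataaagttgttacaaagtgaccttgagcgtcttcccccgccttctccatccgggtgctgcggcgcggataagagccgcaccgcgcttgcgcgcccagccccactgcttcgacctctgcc
Atp5k: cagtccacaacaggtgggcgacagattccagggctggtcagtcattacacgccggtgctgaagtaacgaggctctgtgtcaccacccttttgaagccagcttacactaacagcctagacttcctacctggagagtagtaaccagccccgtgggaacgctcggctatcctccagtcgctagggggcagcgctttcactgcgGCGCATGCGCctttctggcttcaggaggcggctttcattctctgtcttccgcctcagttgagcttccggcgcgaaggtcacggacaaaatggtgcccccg

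Of the 93 nuclear rows, 73 matched a RefSeq promoter entry. On either strand, the NRF1 consensus stood in the promoters of 7 of these 73 genes (9.59%): Atp5g2, Atp5k, Cox6a1, Ndufa11, Ndufaf4, Ndufaf5 and Uqcrc1. It stood in 1.07% of all 27025 genes with an entry. With any base allowed at 1 central position, a motif that includes the first, the shares were 24.7 and 5.19%. AAGATGGCG, letters bound by YY1, stood in 10.96% of the member genes against 1.64% of all, CCGGAAGT, bound by ETS factors such as GABP, in 6.85 against 4.31%, and TATAAA in 9.59 against 15.7%. The median promoter of a member had 19 CpG dinucleotides against 7 over all promoters, and none of these matches shows binding in these cells.

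After barcodes with over 20% of UMIs (unique molecular identifiers, which stand for captured transcripts) from mitochondrial DNA, barcodes with under 200 genes, and doublets were removed, 4694 control, 5266 day 4 and 9938 day 21 cells were kept. Their median UMIs per cell were 4179, 4410 and 3017. The mitochondrial limit removed 23.8, 32.0 and 10.7% of barcodes, and as the mitochondrial UMIs came from the 13 members alone, the limit acted directly on them. The cells formed 28 clusters, of which 22 took the name of 1 of 14 lineages from marker genes. The members were kept out of the genes used for clustering. Clusters that stayed unnamed held 24.99, 21.5 and 17.9% of cells. At least 1 UMI of every marker of its own list was counted in each library for 11 of the 14 lineages. NK/ILC1-like cells missed 1 of 11 at day 4, and the few control neutrophil precursor-like and cholangiocyte-like cells missed 6 of 11 and 1 of 7. As clusters were named from these same lists, this detection is no separate support for the names. All 12 hepatocyte markers were likewise detected in endothelial-like cells of every library. Only 13 to 32 barcodes were shared between any pair of libraries. The members carried 10.6, 10.8 and 8.18% of the UMIs of kept cells. Symbols Cox7b2 and Cox8c and the second of the rows named Atp5o, which overlaps the first, had 0 UMIs.

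Levels are given as UMIs per 1000000 UMIs that are not mitochondrial (CPM), summed over the cells of a lineage in a library, so that mitochondrial transcripts do not dilute the nuclear genes. Among the 9 lineages with at least 50 cells in every library, neutrophil-like cells held the lowest summed level of the nuclear genes and hepatocyte-like cells the highest, in all 3 libraries. Neutrophil-like cells had 10125, 8136 and 7669 CPM in control, day 4 and day 21, the order used from here on. Hepatocyte-like cells had 32124, 42194 and 43496 CPM. In the control the lineages between them ran from B-like (16657) through T-like (18088), Kupffer-like (18376), stellate-like (18431), endothelial-like (20133) and conventional dendritic-like (23047) to NK/ILC1-like cells (23383). T-like and Kupffer-like cells, Kupffer-like and stellate-like cells, and conventional dendritic-like and NK/ILC1-like cells were neighbours whose intervals met.

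**Figure D1:**
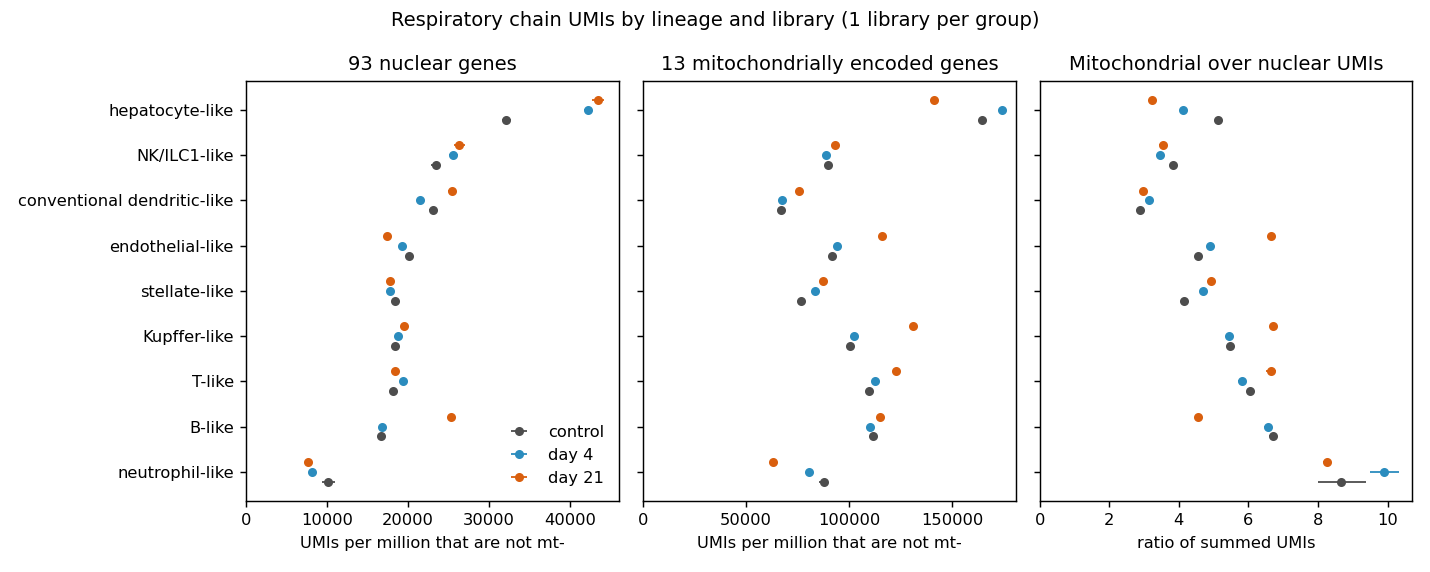
Summed levels of the 93 nuclear and the 13 mitochondrially encoded genes (UMIs per 1000000 UMIs that are not mitochondrial), and the ratio of the 2 sums, for 9 lineages (rows) in the control, day 4 and day 21 libraries; points are sums over cells and bars 95% counting intervals, most narrower than the point. Neutrophil-like cells had the fewest nuclear UMIs and the highest ratio (8.66, 9.91 and 8.25), and hepatocyte-like cells the most nuclear UMIs (32124, 42194 and 43496).

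The mitochondrially encoded genes followed another order. Their sum was highest in hepatocyte-like cells (164632, 174219 and 140991 CPM) and lowest in conventional dendritic-like cells in the control and at day 4 (66747 and 67475 CPM) and in neutrophil-like cells among these 9 lineages at day 21 (63273 CPM). Dividing mitochondrial by nuclear UMIs of the chain gave neutrophil-like cells the highest ratios of the 9 lineages, with 8.66 (8.01 to 9.38), 9.91 (9.50 to 10.3) and 8.25 (8.15 to 8.35). Conventional dendritic-like cells had the lowest ratios of the 9, at 2.90 (2.83 to 2.96), 3.15 (3.09 to 3.21) and 2.97 (2.91 to 3.03). Plasmacytoid dendritic-like cells, with 41, 51 and 79 cells, had 4.76, 4.81 and 4.77. These are ratios of transcripts and carry no information on the number of mitochondria. The neutrophil-like ratio at day 21 was 4.43 with called doublets kept and 4.18 when each cell was assigned by its own markers. Both lay below the day 21 main values of endothelial-like (6.65), Kupffer-like (6.71) and T-like cells (6.65). The main value leaves out unnamed cluster 23, which matched neutrophil markers best and had a ratio of 3.02 at day 21. One B-like cluster, cluster 9, had 8.93 at day 21.

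The most counted nuclear member of each complex showed how wide the span between lineages was. Cox4i1, the general isoform of a complex IV subunit made in the nucleus, ran from 475 CPM in neutrophil-like to 1050 CPM in NK/ILC1-like cells in the control, and from 353 to 1393 CPM in hepatocyte-like cells at day 21. Uqcrh, the hinge protein of complex III, ran from 173 to 727 CPM in the control and from 228 to 807 CPM at day 21, in both with T-like cells highest and neutrophil-like cells lowest. Ndufa2, an accessory subunit of complex I, ran from 230 to 591 CPM in the control, with neutrophil-like cells lowest and hepatocyte-like cells highest. Ndufs7, which carries an iron-sulfur cluster in the core of complex I, ran from 43.2 to 152 CPM between the same lineages. Atp5e, the epsilon subunit of ATP synthase, was lowest in endothelial-like cells in the control (427 CPM) and at day 4 (379 CPM). Sdhd, which anchors complex II in the membrane, ran from 62.4 CPM in T-like to 165 CPM in hepatocyte-like cells in the control.

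Among the mitochondrially encoded genes, mt-Co1, mt-Co2, mt-Co3, mt-Atp6 and mt-Cytb each ranged between 5072 and 34429 CPM over the 27 combinations of lineage and library. The complex I genes spread further, from mt-Nd6 at 19.0 to 114 CPM to mt-Nd4 at 3193 to 11538 CPM, and mt-Atp8 lay at 61.6 to 324 CPM. mt-Co1, the catalytic subunit of complex IV, was at 29361, 31564 and 22723 CPM in hepatocyte-like cells and at 9133, 9511 and 10609 CPM in conventional dendritic-like cells. mt-Cytb, the mitochondrial subunit of complex III, was at 13905, 13541 and 13518 CPM in hepatocyte-like cells. mt-Atp6, which forms the proton channel of ATP synthase with the c ring, was at 32354, 34429 and 29552 CPM there, and mt-Nd1, a membrane subunit of complex I, at 10306, 10297 and 7002 CPM. Within that lineage mt-Cytb was thus nearly level across the libraries, while mt-Nd1 and mt-Co1 were lowest at day 21.

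Several subunits exist as a general isoform and one that is restricted to certain tissues. Cox6a2, the heart and muscle isoform of a complex IV subunit (ENSMUSG00000030785, GRCm38, chromosome 7, 128205435 to 128206387, minus strand), was concentrated in plasmacytoid dendritic-like cells, the main producers of type I interferon. These cells held 338, 457 and 386 Cox6a2 UMIs, or 1312, 1520 and 1592 CPM. It was found in 40 of 41, 47 of 51 and 70 of 79 of them, at median depths of 6991, 6562 and 3363 UMIs, and in 0 of 1443 control endothelial-like cells at a median of 5542. Cox6a2 took 84.5, 89.1 and 85.2% of the UMIs of the Cox6a pair there, and Cox6a1, the general isoform, was at 241, 186 and 276 CPM, while conventional dendritic-like cells had 280, 250 and 357 CPM of Cox6a1 and at most 1 UMI of Cox6a2 in a library. Outside that lineage, Cox6a2 was counted in 49 of 1326 neutrophil precursor-like cells at day 21 (132 UMIs) and in 12 of 725 B-like cells at day 21 (26 UMIs), with at most 6 UMIs in a library in any further lineage. In the 6 control precursor-like cells, 28 of its 33 UMIs came from 1 barcode.

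**Figure D2:**
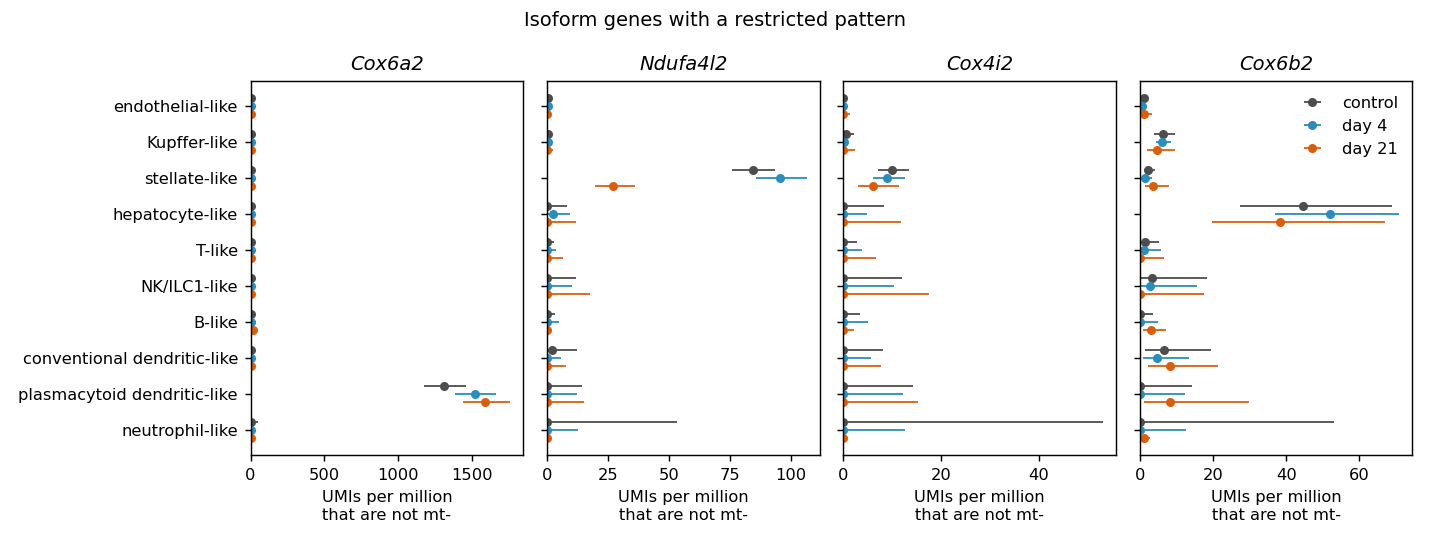
Levels of Cox6a2, Ndufa4l2, Cox4i2 and Cox6b2 (UMIs per 1000000 UMIs that are not mitochondrial, own scale in each panel) in 10 lineages and 3 libraries, with 95% counting intervals, which are wide where a lineage has few UMIs. Cox6a2 stands out in plasmacytoid dendritic-like cells (1312, 1520 and 1592), and Ndufa4l2 and Cox4i2 in stellate-like cells. Ndufa4l2 is there at 27.04 at day 21 against 84.3 in the control. Cox6b2 is at 44.6, 51.9 and 38.4 in hepatocyte-like cells, which held only 12 of its 504 UMIs at day 21.

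Stellate-like cells, the pericytes of the liver sinusoids, carried another pair. Ndufa4l2, a paralogue of the complex IV subunit NDUFA4 known to be induced by hypoxia (ENSMUSG00000040280, chromosome 10, 127514967 to 127517154, plus strand), was at 84.3, 95.7 and 27.04 CPM in them, from 348, 336 and 44 UMIs. In other lineages it did not exceed 4 UMIs in a library. Its share of the UMIs of the Ndufa4 pair was 13.2, 14.9 and 4.45%. The day 21 level was lower by a log2 ratio of -1.63 (-2.13 to -1.19), which lay between -1.42 and -3.01 over the alternative settings. At day 21 most stellate-like cells (253 of 336) formed cluster 11, with Bdnf and Timp1 among its leading genes, which held 1 control cell; there Ndufa4l2 was at 30.2 CPM. In cluster 10, which held 447 of the 448 control cells and 83 at day 21, it was at 85.0, 96.0 and 8.43 CPM, the last from 2 UMIs, a ratio to the control of 0.0992 (0.0120 to 0.361). Cluster 11 had no control level of its own, and its day 21 level stood below that of cluster 10 in the control. The only comparison within a cluster was thus that of cluster 10. Cox4i2, the isoform of Cox4 known from lung and pericytes (ENSMUSG00000009876, chromosome 2, 152754173 to 152765037, plus strand), was at 9.94, 8.83 and 6.15 CPM in stellate-like cells, from 41, 31 and 10 UMIs, and it had 27 UMIs in the 1326 neutrophil precursor-like cells at day 21 and at most 5 in a library in any other lineage. Its intervals in the 3 libraries overlapped.

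Hepatocyte-like cells exceeded the median over lineages with at least 50 cells, themselves included, by over 3-fold in every library for 4 further members. Uqcrq, a small subunit of complex III, was at 1928, 1916 and 2104 CPM, against medians of 327, 277 and 375 CPM. Atp5g1 was at 616, 877 and 813 CPM against 196, 193 and 235 CPM. Cox6b2, the testis isoform of a complex IV subunit, was at 44.6, 51.9 and 38.4 CPM from 20, 39 and 12 UMIs. Cox7a1 was at 11.2, 7.99 and 19.2 CPM from only 5, 6 and 6 UMIs. Most UMIs of both genes lay in other cells. All kept cells together held 71, 99 and 504 UMIs of Cox6b2 and 55, 86 and 162 of Cox7a1. Cox7a1, the muscle isoform of its subunit, also took 2.31, 2.64 and 2.03% of the Cox7a UMIs of Kupffer-like cells and 8.40, 8.85 and 4.92% of those of the 18, 21 and 20 cholangiocyte-like cells.

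The 3 genes for the c ring of ATP synthase were weighted differently at day 21. In endothelial-like cells Atp5g1 took 24.2, 23.8 and 15.4% of the c ring UMIs; in Kupffer-like cells it took 24.5, 23.6 and 14.8%, and in stellate-like cells 24.5, 24.6 and 18.6%. Its share was lower at day 21 than in the control in 8 of 9 lineages, with intervals that did not meet in 4, while at day 4 it was lower in 6 of 9 and the intervals met in all. The Atp5g3 share was higher at day 21 than in the control in 7 of 9 lineages, with intervals that did not meet in 4, and lower in 2. It was 36.6% against 29.8% in the control in endothelial-like and 36.4% against 26.998% in Kupffer-like cells. In T-like cells it was 22.9% against 24.1%. Atp5g2, the gene whose promoter above carries the NRF1 letters, held the largest share in endothelial-like cells, with 46.0% in the control and 48.0% at day 21. Hepatocyte-like cells had another make-up in every library, with 42.4, 46.6 and 43.2% for Atp5g1. The clusters qualify this: endothelial-like cells at day 21 lay mostly in cluster 13 (1044 of 1140, led by Cnmd, with 8 control cells), where the Atp5g1 share was 15.3%, whereas the 63 day 21 cells of cluster 1 had 23.1% against 23.3% in the control. In Kupffer-like cells the lower share was found within cluster 4 (23.9, 23.2 and 13.3%) and not in the shallower cluster 12 (29.3, 27.4 and 28.3%).

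Day 4 was compared with the control to see whether the chain had moved early. A member was counted as higher or lower when its ratio passed 1.5-fold, among genes with an expected count of at least 20 in the smaller sum. Hepatocyte-like cells had the largest early difference: 17 of 78 nuclear members that passed the filter were higher and 0 lower, where 11.6 and 9.46% of all tested genes were. The summed nuclear level was higher by 0.39 log2 (0.36 to 0.42), and the median of all tested genes by 0.07. In the other lineages the nuclear sum differed by at most 0.13 log2 except in neutrophil-like cells (-0.32, -0.44 to -0.19), where only 7 of 93 nuclear members passed the filter. In endothelial-like cells 0 of 84 members were past 1.5-fold in either direction (all genes: 4.58% higher and 3.31% lower), as in Kupffer-like cells, with 0 of 84 (4.62 and 5.3%). In stellate-like cells 0 of 86 were higher and 1 lower (4.48 and 5.4%), which was the assembly factor gene Ndufaf7 with 45 and 24 UMIs. T-like cells had 0 of 78 either way (8.69 and 6.2%), conventional dendritic-like cells 0 of 74 (6.5 and 7.62%) and neutrophil-like cells 0 of 7 (8.06 and 14.7%). B-like cells had 1 of 78 higher and 0 lower (10.5 and 5.58%), the assembly factor gene Ndufaf3 with 23 and 25 UMIs, and NK/ILC1-like cells 6 of 73 higher and 0 lower (12.5 and 9.84%).

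In hepatocyte-like cells at day 4, Sdhb, the iron-sulfur subunit of complex II, had 149, 309 and 349 CPM, log2 ratios of 1.04 (0.65 to 1.46) and 1.22 (0.77 to 1.68). Cox5a, a nuclear subunit of complex IV, had 493, 829 and 836 CPM, and Ndufv2, part of the NADH-binding module of complex I, had 125, 218 and 285 CPM. All 3 were higher in both tumour libraries than in the control. Ndufc2, a membrane arm subunit of complex I, had 114, 193 and 224 CPM, and Ndufaf4, an assembly factor, had 35.7, 71.9 and 60.8 CPM from 16, 54 and 19 UMIs. By complex, 4 of 7 core and 6 of 29 accessory subunits and 1 of 2 assembly factors of complex I, 2 of 4 subunits of complex II, 2 of 13 of complex IV, 2 of 15 of complex V and 0 of 8 of complex III were higher at day 4, beside the 11.6% of all tested genes; complexes IV and V were near that share. The mitochondrially encoded sum differed by 0.08 log2 (0.07 to 0.09). These cells were few (70, 193 and 171) and shallow, with median depths of 1555, 1158 and 899 UMIs, and their 12 hepatocyte markers summed to 125949, 120756 and 93657 CPM; the part of these in the result was not tested.

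At day 21 the hepatocyte-like difference was larger in count and the background larger too. Of 76 nuclear members 31 were higher and 0 lower, where 27.9% of all tested genes were higher and 14.5% lower. The summed nuclear level was higher by 0.44 log2 (0.40 to 0.47), against a median of 0.22 for all tested genes. Ndufv3 had 237, 358 and 525 CPM, Ndufs8, an iron-sulfur subunit of the core of complex I, 89.3, 148 and 199 CPM, and Uqcrb, a subunit of complex III, 393, 587 and 813 CPM, each stepping up from control to day 4 to day 21. The mitochondrially encoded sum went the other way, by -0.22 log2 (-0.24 to -0.21). mt-Nd5 had 1814, 1578 and 893 CPM (log2 ratio at day 21 -1.02, -1.22 to -0.82), mt-Nd2 had 10869, 9485 and 6874 CPM and mt-Nd4l had 1183, 1310 and 759 CPM. The ratio of mitochondrial to nuclear UMIs stood at 5.125 (5.03 to 5.22), 4.13 (4.08 to 4.18) and 3.24 (3.18 to 3.30), so that the 3 intervals lay apart. As a mean over cells, in which each cell counts equally, the mitochondrial difference at day 21 was 0.01 and the nuclear one 0.565. A stricter mitochondrial limit, no such limit and thinned counts gave no day 21 value for this lineage, so its dependence on them was not tested. Without the limit, the cluster named hepatocyte held 139, 88 and 26 cells. A shallower cluster with hepatocyte markers, which stayed unnamed, held 72, 343 and 241 cells.

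**Figure D3:**
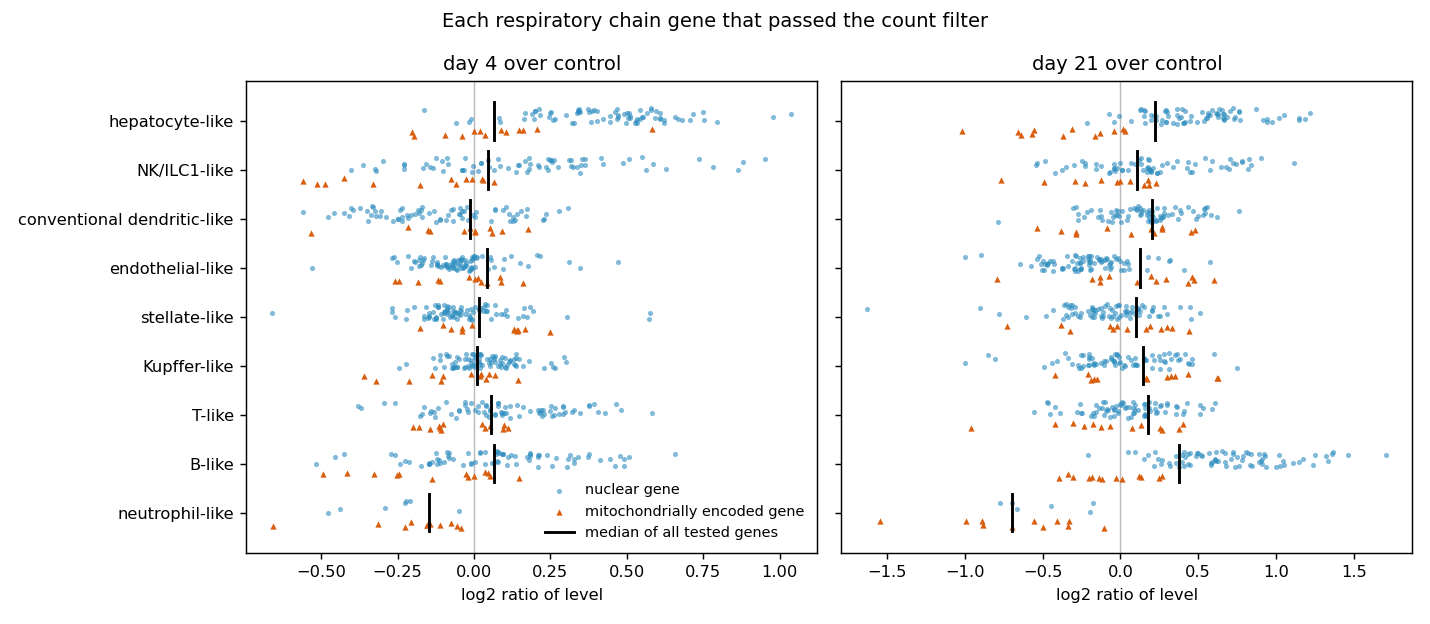
Log2 ratio of day 4 (left) and day 21 (right) over control for each nuclear (circles) and mitochondrially encoded gene (triangles) that passed the count filter, in 9 lineages; the black bar is the median of all tested genes of that lineage. Of the nuclear genes of hepatocyte-like cells, 74 of 78 at day 4 and 62 of 76 at day 21 lie to the right of the bar, and of those of endothelial-like cells 75 of 82 lie to its left at day 21, where their sum differed from the control by -0.21.

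Endothelial-like cells, which line the sinusoids, had a lower nuclear sum and a higher mitochondrial sum at day 21. The nuclear genes summed to 20133, 19228 and 17441 CPM, a log2 ratio of -0.21 (-0.22 to -0.19) at day 21, while the median of all tested genes was 0.12. Of 82 nuclear members, 69 had a ratio below 1, but only 3 were past 1.5-fold lower and 0 higher (all genes: 7.03 and 17.3%). Cox5b, a zinc-binding subunit of complex IV, had 255, 228 and 128 CPM (log2 ratio -0.999, -1.17 to -0.83). Ndufa12, an accessory subunit of complex I, had 147, 143 and 78.9 CPM, and Ndufs4, needed for a stable NADH-binding module, had 140, 138 and 89.4 CPM. For these genes the control and day 4 were alike and day 21 stood below both. The summed log2 ratio was -0.29 for the core and -0.27 for the accessory subunits of complex I, -0.28 for complex IV, -0.15 for complex III and -0.09 for complex V, and for complex II it was 0.09 with an interval that included 0. The mitochondrially encoded genes summed to 91670, 93973 and 115961 CPM (log2 ratio 0.34, 0.33 to 0.35), with mt-Co1 at 12963, 13790 and 19629 CPM, mt-Cytb at 8748, 8894 and 11842 CPM, mt-Atp6 at 17961, 18128 and 21999 CPM, mt-Nd1 at 6521, 6442 and 7035 CPM and the scarce mt-Nd6 at 103, 109 and 58.9 CPM.

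The 2 endothelial differences behaved differently within clusters. In cluster 1 the nuclear sum was 19536 CPM in the control and 19366 CPM in the 63 day 21 cells, nearly level, while the mitochondrial sum was 91403 and 109489 CPM. Cluster 13, which held most day 21 cells, had 17111 and 117024 CPM. The lower nuclear sum was thus found with cluster 13, whose leading gene is Cnmd, and was not seen in cluster 1.

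Kupffer-like cells, macrophages that live in the sinusoids, had a similar mitochondrial difference without the nuclear one. Their mitochondrial sum was 100339, 102271 and 130693 CPM, a log2 ratio of 0.38 (0.37 to 0.39) at day 21, and their nuclear sum 18376, 18770 and 19480 CPM (0.08, 0.06 to 0.10, with all tested genes at a median of 0.14). Of 78 nuclear members 2 were past 1.5-fold higher and 3 lower (all genes: 16.6 and 7.96%). The higher ones were Atp5g3 (216, 230 and 362 CPM; log2 ratio 0.75, 0.59 to 0.91) and Cox5a (829, 1017 and 1258 CPM). The lower ones were Ndufa12 (107, 114 and 53.0 CPM; -1.002, -1.38 to -0.66), Cox5b (208, 192 and 119 CPM) and Ndufv1, the NADH-binding subunit of complex I (53.0, 53.2 and 29.2 CPM). mt-Co1 stood at 16370, 17180 and 25264 CPM, mt-Co3 at 19151, 21170 and 29439 CPM, mt-Atp6 at 18656, 18925 and 23318 CPM, mt-Cytb at 8081, 8302 and 10309 CPM and mt-Nd1 at 6790, 6303 and 7650 CPM. Day 4 lay close to the control in most of these genes and day 21 above both.

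Depth moved with these mitochondrial differences. The median UMIs per cell were 5542, 5091 and 2487 in endothelial-like, 7657, 7376 and 2029 in Kupffer-like and 3577, 3602 and 1725 in T-like cells, and within one library a shallower Kupffer-like cluster also held more mitochondrial UMIs: in the control, cluster 12 (median 1518 UMIs) had 144414 CPM and cluster 4 (median 10415 UMIs) 96235 CPM. In cluster 4 the median depth went from 10415 to 2153 UMIs at day 21 while the mitochondrial sum went from 96235 to 133234 CPM. Cluster 12 went the other way: its median depths were 1518, 1750 and 843 UMIs and its mitochondrial sums 144414, 140266 and 108771 CPM, so the higher Kupffer-like sum at day 21 was found in cluster 4 and not in cluster 12. All 12 hepatocyte markers were detected in Kupffer-like and endothelial-like cells of every library, with sums of 2898, 2331 and 1229 CPM in the former and 1048, 898 and 479 CPM in the latter. The part of depth and of these transcripts in the result was not tested. With a mitochondrial limit of 10%, the Kupffer-like log2 ratio was 0.08 and the endothelial-like one 0.16.

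Stellate-like cells had sums of 18431, 17771 and 17735 CPM for the nuclear genes (log2 ratio at day 21 -0.06, -0.08 to -0.04) and 76382, 83514 and 87120 CPM for the mitochondrial ones (0.19, 0.18 to 0.20). Within cluster 10 the nuclear sum was 18499 CPM in the control and 19217 CPM at day 21, and the mitochondrial sum 76688 and 103697 CPM. Its median depths were 8051 and 2483 UMIs. Cluster 11, with 1 control cell, had 17482 and 84290 CPM of the nuclear and mitochondrial genes at day 21. Of 80 nuclear members 4 were lower and 0 higher (all genes: 8.18 and 15.4%): Ndufa4l2, described above, Ndufa12 (174, 165 and 92.8 CPM; -0.91, -1.17 to -0.65) and the assembly factor genes Ndufaf3 (36.4, 41.0 and 20.9 CPM) and Ndufaf2 (36.8, 33.9 and 23.97 CPM). Ndufa12 was therefore lower in endothelial-like, Kupffer-like and stellate-like cells, while over the 8 lineages in which it was tested it was higher in 4 and lower in 4. Cox5a, by contrast, was higher at day 21 in 8 of 8 lineages, with a median log2 ratio of 0.57. So were Atp5k (0.49), Ndufc1 (0.41), Sdhd (0.34), Ndufa3 (0.32), Uqcrq (0.27) and Atp5g2 (0.19). The median of all tested genes was itself above 0 in every compared lineage but neutrophil-like cells, from 0.10 to 0.375. How many of all genes were higher in every lineage was not counted. These lineages share their libraries, so they are not independent.

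T-like cells had nuclear sums of 18088, 19350 and 18410 CPM, and at day 21, 2 of 77 members were higher and 0 lower (all genes: 20 and 5.21%). Both, Ndufs1 (43 and 26 UMIs) and Ndufaf4 (52 and 31 UMIs), had intervals that included a ratio of 1. The scarce mt-Nd6 was at 82.7, 74.7 and 41.7 CPM. In NK/ILC1-like cells the nuclear sum was 23383, 25576 and 26340 CPM, and 14 of 69 members were higher and 0 lower at day 21 (all genes: 16.4 and 9.3%). Among them were Ndufab1, the acyl carrier protein of complex I, at 98.2, 170 and 214 CPM, Cox5a at 402, 500 and 752 CPM, and Uqcr11, a small subunit of complex III, at 170, 285 and 305 CPM. Ndufs8 (65.4, 128 and 105 CPM) and Ndufs3 (72.0, 134 and 80.9 CPM) were highest at day 4. Conventional dendritic-like cells had 2 of 75 members higher and 1 lower (all genes: 23.3 and 7.25%). Uqcrc1, a core subunit of complex III, had 90.5, 89.3 and 140 CPM, Sdhc had 21 and 38 UMIs in the control and at day 21, and the assembly factor gene Ndufaf8 had 102, 78.6 and 58.5 CPM.

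B-like cells had the largest nuclear difference of the 9 lineages at day 21. The nuclear sum was 16657, 16773 and 25339 CPM, a log2 ratio of 0.61 (0.58 to 0.63), and 47 of 79 members were higher and 0 lower, where 38.3% of all tested genes were higher, 8.84% lower and their median was 0.38. Cox5a had 238, 301 and 656 CPM (log2 ratio 1.46, 1.26 to 1.67), Ndufab1 86.2, 112 and 223 CPM, Ndufc1, a small membrane subunit of complex I, 90.9, 105 and 230 CPM, and Sdhc, an anchor of complex II, 26.2, 36.8 and 68.2 CPM. In each the day 21 library stood above the other two. This difference lay with a second cluster and not within the first. Cluster 9, led by Fcer2a and Ighd as mature B cells are, had nuclear sums of 16061, 15813 and 16458 CPM, and cluster 18, led by Igll1, Vpreb1 and Rag1 as B cell precursors are, held 321 of the 725 day 21 cells against 14 control cells and had 30757 CPM.

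Within the day 21 library, a comparison added after the data had been seen, the Vpreb1 cluster exceeded the Ighd cluster for 64 of 79 nuclear members, with 0 lower (all genes: 31.6 and 19.1%). The median log2 ratio was 0.92 against 0.18 for all tested genes. The largest were Ndufb8, a membrane arm subunit of complex I (86.0 and 299 CPM; 1.79, 1.38 to 2.24), Sdhd (58.9 and 190 CPM) and Atp5k (156 and 491 CPM). The 13 mitochondrial genes were all lower in the Vpreb1 cluster, 6 of them past 1.5-fold, and their sum was 146950 CPM in the Ighd and 95731 CPM in the Vpreb1 cluster. The ratio of mitochondrial to nuclear UMIs was 8.93 in the Ighd cluster and 3.11 in the Vpreb1 cluster.

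**Figure D4:**
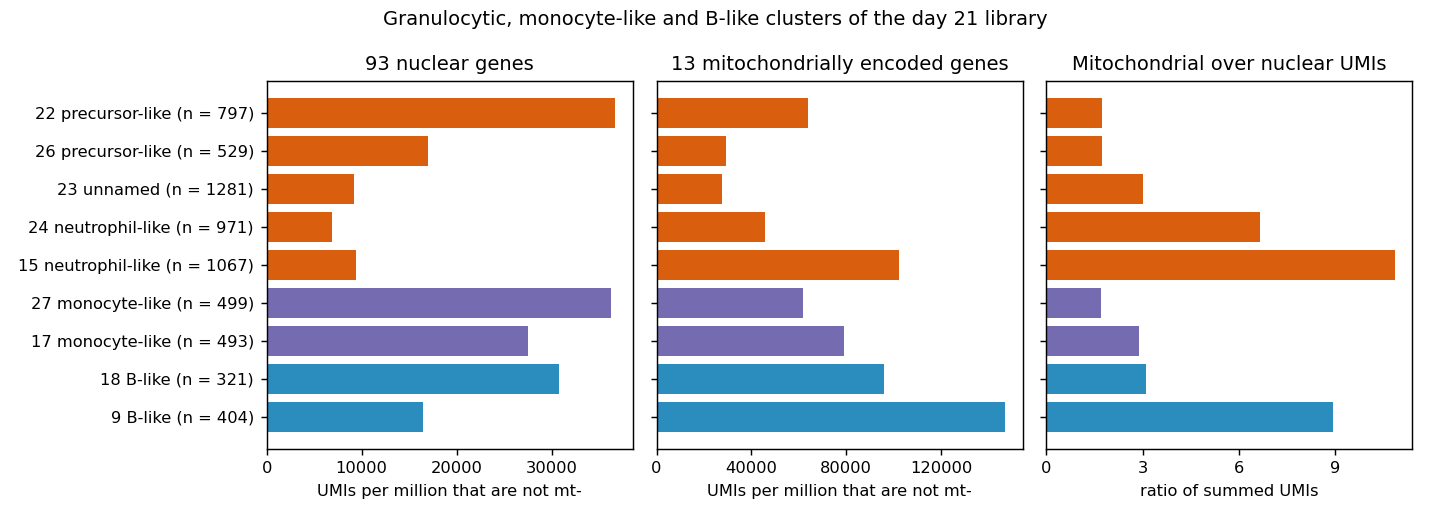
Nuclear and mitochondrially encoded sums (UMIs per 1000000 UMIs that are not mitochondrial) and their ratio in 9 clusters of the day 21 library, with numbers of cells; granulocytic clusters in orange, monocyte-like in purple, B-like in blue. Clusters 22, 27 and 18 hold the most nuclear UMIs of their kind (36694, 36286 and 30757), and the ratio runs from 1.70 in cluster 27 to 10.9 in cluster 15.

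The day 21 library held 1326 neutrophil precursor-like cells, against 6 in the control and 3 at day 4, which allowed both to be compared within 1 library, again a comparison added after the data had been seen. Precursor-like cells had a nuclear sum of 29291 CPM and neutrophil-like cells 7669 CPM, a log2 ratio of -1.93 (-1.95 to -1.92). Of 84 nuclear members, 82 were lower by 1.5-fold or more and 0 higher, where 60.0% of all tested genes were lower and 20.4% higher. The median over the members was -2.24, against -1.10 over all tested genes. The 2 members within 1.5-fold were Cox7a2l, which helps join complexes III and IV (198 and 179 CPM), and Atp5l, subunit g of ATP synthase (705 and 503 CPM). At the other end, Atp5g1 was at 474 and 16.5 CPM, 28.8-fold lower, Ndufaf4 at 53.8 and 1.80 CPM, Ndufaf2 at 42.3 and 1.54 CPM, and Ndufa5, an accessory subunit of complex I, at 208 and 8.74 CPM. Ndufaf6, an assembly factor gene with 355 UMIs in precursor-like cells, had 0 in neutrophil-like cells, at least 32.1-fold lower against a floor of 3 UMIs in the summed cells.

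All complexes were lower, to different degrees. The summed log2 ratio was -1.24 for complex II, -1.86 for the accessory subunits of complex I, -1.91 for complex IV, -1.94 for complex V, -2.12 for complex III, -2.43 for the core of complex I and -2.97 for the complex I assembly factors. Among the named cells the mitochondrially encoded genes were not lower. Their sum was 50935 CPM in precursor-like and 63273 CPM in neutrophil-like cells (0.31, 0.31 to 0.32), with mt-Nd2 (1945 and 3310 CPM) and mt-Nd4 (2752 and 4618 CPM) past 1.5-fold higher. This direction depended on the setting. It was -0.01 with a mitochondrial limit of 10% and -0.40 when each cell was assigned by its own markers. The nuclear ratio lay between -2.13 and -1.08 over all settings. Unnamed cluster 23 entered neither sum. It held 1281 day 21 cells, matched the neutrophil markers best and had a mitochondrial sum of 27778 CPM, below both sums above. The value of -1.08 came with called doublets kept, a setting that changed both sides. Cells with Muc13, Hoxa9 and Dntt (403 at day 21) and with Ctsg, Mpo and Elane (855) among their leading genes formed separate unnamed clusters. Clusters led by Ltf and Ly6g (1065), by Stfa3 (288) and by Iqgap3 (131) were named neutrophil, whereas cluster 23 was unnamed in the main setting. The part of the Muc13 and Hoxa9 cells in the value of -1.08 was not tested. In the main setting, cluster 22, led by Muc13 and Hoxa9, held 797 of the day 21 precursor-like cells, with a nuclear sum of 36694 CPM. Cluster 26 held 529 of them, with 17025 CPM. The sum of 7669 CPM in neutrophil-like cells lay below both, and further below that of cluster 22. The ratio of -1.93 thus mixes a larger and a smaller difference. Precursor-like cells were also deeper, with a median of 10952 against 1712 UMIs. Among cells with at least 1000 UMIs that are not mitochondrial, thinned to 1000 on average, the ratios were -1.87 and 0.30. Shallower cells were left out of this setting, and neutrophil-like cluster 15 had a median of only 1150 UMIs.

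By cluster, cluster 22, led by Muc13 and Hoxa9, known from blood stem and progenitor cells, with the promyelocyte genes Mpo, Ctsg and Elane also among its 10 leading genes, had a nuclear sum of 36694 CPM and a mitochondrial sum of 63960 CPM. Cluster 26, led by Fcnb, Camp and Ngp, had 17025 and 29353 CPM, so that both sums were lower by a similar factor and the ratio was 1.72 against 1.74. Cluster 23, which stayed unnamed and was led by Olfm4, Ly6g and Ltf, had 9208 and 27778 CPM. Clusters 24, led by Prok2 and Retnlg, and 15, led by Slc7a11 and Il1b, had 6891 and 9417 CPM of the nuclear genes but 45898 and 102280 CPM of the mitochondrial ones. The ratio was 3.02, 6.66 and 10.9 in clusters 23, 24 and 15. Cluster 15 was the shallowest, with a median of 1150 UMIs against 2790 in cluster 24 and 5898 in cluster 23. Monocyte-like cells showed the same contrast between their clusters, with 36286 CPM and a ratio of 1.70 in cluster 27 and 27504 CPM and 2.88 in cluster 17.

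Between libraries, neutrophil-like cells had lower sums at day 21 for both kinds of gene, with a nuclear log2 ratio of -0.40 (-0.51 to -0.29) and a mitochondrial one of -0.47 (-0.51 to -0.43), but the median of all tested genes was -0.69, and relative to it both were higher, by 0.30 and 0.23. With called doublets kept the ratios were -0.72 and -1.02. Only 6 of 93 nuclear members passed the filter, since the control held 54 such cells; 3 of the 6 were lower and 0 higher (all genes: 54.4 and 11.4%). Atp5e had 504, 416 and 299 CPM. Of the mitochondrial genes, mt-Nd4l had 533, 341 and 185 CPM, mt-Nd2 6567, 5281 and 3310 CPM, mt-Nd5 605, 521 and 331 CPM and mt-Nd1 5012, 4507 and 2726 CPM, each lowest at day 21, while mt-Co1 was nearly level at 10010, 9730 and 9304 CPM. In cluster 15 alone, the only one with control cells, the mitochondrial sum was 87695, 84703 and 102280 CPM, the opposite direction at day 21. The 11 neutrophil markers summed to 135971, 203420 and 398958 CPM in these cells, and their part in the result was not tested.

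The make-up of the mitochondrial UMIs shifted in the same way in most lineages. As a share of all 13 genes, mt-Nd1, mt-Nd2 and mt-Nd5 were lower than in the control in 9 of 9 lineages at both times, and mt-Co3 was higher in 9 of 9 at both. The median differences were -0.48 and -1.06 percentage points for mt-Nd1, -0.78 and -1.73 for mt-Nd2 and 1.13 and 1.48 for mt-Co3 at day 4 and day 21. mt-Co1 was higher in 9 of 9 lineages at day 4 and in 8 of 9 at day 21. At day 21 alone, mt-Nd4 was higher in 9 of 9 and mt-Co2 lower in 9 of 9, with medians of 0.66 and -0.86 points. In Kupffer-like cells mt-Co3 took 19.1, 20.7 and 22.5% and mt-Nd2 6.70, 5.97 and 4.51% of the mitochondrial UMIs, and in B-like cells mt-Nd2 took 6.40, 5.47 and 4.91%. Since all lineages of a library share its preparation, a difference between libraries and a difference between mice cannot be told apart here.

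**Figure D5:**
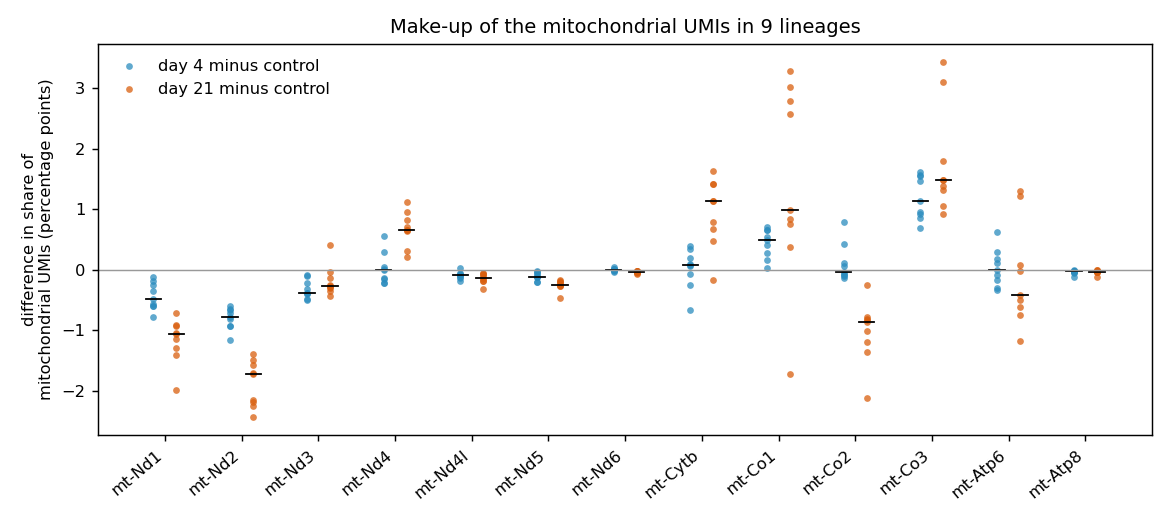
Difference from the control, in percentage points, of each gene's share of the mitochondrial UMIs at day 4 (blue) and day 21 (orange); each point is 1 of 9 lineages and the black bar their median. The points of mt-Nd2 lie below 0 (medians -0.78 and -1.73) and those of mt-Co3 above it (1.13 and 1.48) in every lineage.

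Other genes of mitochondria and energy metabolism were read beside the share of all tested genes that passed the same fold. In the comparison of neutrophil-like with precursor-like cells at day 21, where 60.0% of all genes were lower, 74 of 77 tested proteins of the mitochondrial ribosome, 20 of 20 genes of the citric acid cycle and pyruvate dehydrogenase, and 18 of 20 genes of mitochondrial DNA expression were lower, with medians of -3.26, -2.62 and -3.44. Glycolytic genes had a median of -0.06, with 4 of 19 higher and 7 lower, and cytosolic ribosome proteins, 83 of 89 of them lower, one of -3.00, below that of the respiratory chain.

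In hepatocyte-like cells at day 21, where 27.9% of all genes were higher, so were 22 of 42 mitochondrial ribosome proteins, 8 of 18 citric acid cycle genes, 5 of 7 glycolytic genes and 7 of 11 genes of mitochondrial antioxidants and uncoupling. Their medians were 0.62, 0.49, 0.86 and 0.67, beside 0.51 for the nuclear chain genes, and cytosolic ribosome proteins had a median of 0.32, with 13 of 69 higher. The higher levels were thus not limited to mitochondrial genes. In the Vpreb1 against the Ighd cluster, where 31.6% of all genes were higher, so were 49 of 65 mitochondrial ribosome proteins (median 0.79), 10 of 18 citric acid cycle genes (0.69) and 7 of 12 glycolytic genes (0.91), while cytosolic ribosome proteins had a median of -0.27. In endothelial-like cells at day 21, 4 of 15 glycolytic genes were higher and 1 lower, where 17.3% of all genes were higher. Their median was 0.38, against -0.21 for the nuclear chain genes, 0.01 for mitochondrial ribosome proteins and -0.31 for cytosolic ribosome proteins.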

How the data were processed

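Each library was deposited as a matrix of raw UMI counts per gene and barcode; per the file headers these deposited counts come from Cell Ranger 3.1.0, and the submitters' processing notes name the build mm10. Doublets were scored with Scrublet in Scanpy 1.11.5; 40, 243 and 732 cells were removed, at day 4 the expected 4.41% because the automatic threshold marked 0.127%. Clustering used 2000 variable genes without the members, 30 components, 15 neighbours and resolution 1. A cluster was named from fixed marker lists when at least 3 of a list's markers stood out in it, more than of any other list, and its leading genes did not point elsewhere. Named members are those past 1.5-fold whose interval excludes 1 (at most 5 per direction, with the 2 highest and 2 lowest where few were), isoform genes, the most counted member per complex and members 3-fold over the median lineage. Log2 ratios add 0.5 UMIs and carry exact conditional binomial intervals; levels carry Poisson and shares Clopper-Pearson intervals. The comparison was also run on simulated Poisson counts with known folds. These held no variation between mice, libraries or clusters, so the run says nothing about such variation. The members and lists were chosen with earlier results of these data known. Further tools were SciPy 1.17.1, igraph 0.11.9 and NumPy 2.4.6 under Python 3.11.15.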

Additional observations from a re-analysis of the deposited data

Results flagged for a closer look

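At day 21, lineages moved in opposite directions under the same contrast with the control. The summed nuclear genes had log2 ratios of 0.44 in hepatocyte-like and 0.61 in B-like cells and of -0.40 in neutrophil-like cells. The summed mitochondrially encoded genes had log2 ratios of 0.34 in endothelial-like and 0.38 in Kupffer-like cells and of -0.47 in neutrophil-like cells. With 1 library per group these differences between lineages were not tested. Relative to the median of all tested genes, the neutrophil-like values became 0.30 and 0.23.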

How the results depend on the processing

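No paired analysis was possible because each group had 1 library. Of 687 log2 ratios recomputed under the alternative settings, 98 changed sign, 25 of them where the main value was at least 0.1 in size, and no value past 1.5-fold changed direction. The number of lineages above the control was, for the nuclear genes, 5 of 9 at day 4 and 6 of 9 at day 21, and for the mitochondrial genes 6 of 9 and 7 of 9. With a mitochondrial limit of 10%, which left 5 lineages, these were 3, 3, 2 and 4, the ratio of mitochondrial to nuclear UMIs was higher at day 21 in 2 (main 5 of 9), and the Atp5g1 share was lower in 5 (main 8 of 9). Thinned to 1000 UMIs, with shallower cells dropped, 6 lineages were left and the nuclear counts were 3 and 3. Centred on the median of all tested genes, the mitochondrial count at day 21 was 4. These counts are over fewer lineages where a setting left fewer. The settings in which endothelial-like cells gained the shallow cluster and the 2 comparisons within the day 21 library were chosen after seeing the data. With called doublets kept, the neutrophil-like ratio at day 21 was 4.43, and the nuclear log2 ratio against precursor-like cells was -1.08. Few counts limit the neutrophil-like comparison, in which 6 of 93 nuclear members could be compared at day 21; the control held 54 neutrophil-like, 55 conventional dendritic-like and 70 hepatocyte-like cells.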

Other observations

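Basophil/mast-like cells (18, 15 and 88) and cholangiocyte-like cells (18, 21 and 20) were too few for a comparison. The former had mitochondrial over nuclear ratios of 4.30, 5.30 and 2.995 and the latter 3.30, 2.77 and 2.77. The 25 and 20 monocyte/macrophage-like cells of the control and day 4 had ratios of 3.31 and 2.999, and the 992 at day 21 had 1.99. An unnamed cluster with T cell markers, led by Xcl1, Cd160 and Cxcr6, had nuclear sums of 22570, 22530 and 21116 CPM, above the 18088, 19350 and 18410 CPM of the named T-like cells. A shallow unnamed cluster with endothelial markers had mitochondrial sums of 156221, 166645 and 192424 CPM at median depths of 1105, 1022 and 726 UMIs.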
